A study of Mus musculus with 10 samples.

Results

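The transcripts described here encode the cell-surface receptors for Wnt ligands: the Frizzled receptors Fzd1 to Fzd8 and the coreceptors Lrp5 and Lrp6. They were chosen by name, as the rows of every library whose Ensembl identifier belongs to one of these 10 mouse symbols, and the rule used no measured value. All 10 were found among the 14854 genes of the deposited tables, and all 10 were among the 14177 genes kept after low genes were set aside. FACS had divided the lung mesenchyme of adult mice into 5 lineages, each measured by RNA-seq in 2 libraries. The Wnt2 cells came from the line Wnt2CreERT2:R26REFYP, in which a recombinase driven by Wnt2 switches on a fluorescent reporter. The Axin2:Pdgfra cells (both labels), the Axin2 cells (tdT label alone), the Pdgfra cells (EGFP label alone) and the Negative cells (neither label) all came from the line Axin2CreERT2:tdT:PdgfraEGFP, so the Negative cells carry the same alleles. Mouse line and lineage therefore cannot be told apart for the Wnt2 cells. The labels name no treatment, give the age only as adult and leave unstated whether both libraries of a lineage had animals of their own. The p-values are therefore a measure of the scatter among these libraries, part of which may be technical.

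Frizzled proteins are multi-pass membrane receptors that bind Wnt ligands through a cysteine-rich extracellular domain. In the beta-catenin branch of the pathway a Wnt protein bridges a Frizzled to Lrp5 or Lrp6, single-pass coreceptors of the LDL receptor family, and the phosphorylated tail of the coreceptor then holds Axin at the membrane and away from the complex that degrades beta-catenin. Other branches use Frizzled without Lrp5 or Lrp6, and Fzd3 and Fzd6 are best known from planar cell polarity. Axin2 is itself a target gene of the beta-catenin branch, which is why Axin2 reporters are used to mark cells that respond to Wnt.

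Every value below is a log2 value as deposited, with no counts, so sequencing depth is unknown. Medians were 9.1 to 9.11 in all 10 libraries, and the share of genes listed at the lowest value of a library ranged between 2.09% (Pdgfra 2) and 18.4% (Negative 2). Spearman correlations across genes were 0.769 to 0.928 within the 5 lineages and 0.652 to 0.882 between lineages, so the ranges overlapped. Pdgfra transcript was 14.91 and 15.21 in Axin2:Pdgfra libraries and 14.64 and 14.92 in Pdgfra libraries, against 13.49 and 13 in Axin2 libraries and 12 and 13.34 in Negative libraries. Pdgfra was also present in Wnt2 libraries, at 16.05 and 16.25. Axin2 and Wnt2 transcripts did not separate the lineages named after them. Fibroblast markers summed to as much as 17.88 (Axin2:Pdgfra) and as little as 15.16 (Negative) on the log2 scale, and 1 of the 8, Lum, was listed at the lowest value in Negative 2. Wnt2 2 and Negative 2 had Xist at 7.81 and 8.57 with Ddx3y at 11.48 and 10.74, whereas Xist was at 16.68 or more in the other 8 libraries. Wnt2 1 had both, with Ddx3y at 8.15, and Negative 2 stood apart from Negative 0 for several receptors described below. The 2 Wnt2 libraries thus differed in sex-linked transcripts, as did the 2 Negative libraries. Neither pair came from the same set of animals.

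The receptors fell into an abundant and a scarce set. The median over 10 libraries was 13.25 for Lrp6, 13.08 for Fzd1, 12.76 for Lrp5 and 12.5 for Fzd7, against 10.67 for Fzd4, 10.16 for Fzd5, 9.21 for Fzd8, 8.84 for Fzd2, 8.54 for Fzd3 and 6.81 for Fzd6. Levels of different genes can be compared only per length. Divided by the exon length of the GENCODE M21 annotation, and on the assumption that the deposited values were not already per length, the same 4 genes led: the median log2 level per kilobase was 11.01 for Fzd1, 10.32 for Fzd7, 10.18 for Lrp5 and 10.02 for Lrp6. On that scale Fzd1 stood at percentile 93.9 of 11417 genes, whereas Fzd3 stood at percentile 4.09 and Fzd6 at 3.21. Among the 10 receptors only Fzd6, in Axin2:Pdgfra 2, was listed at the lowest value of a library.

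**Figure D1:**
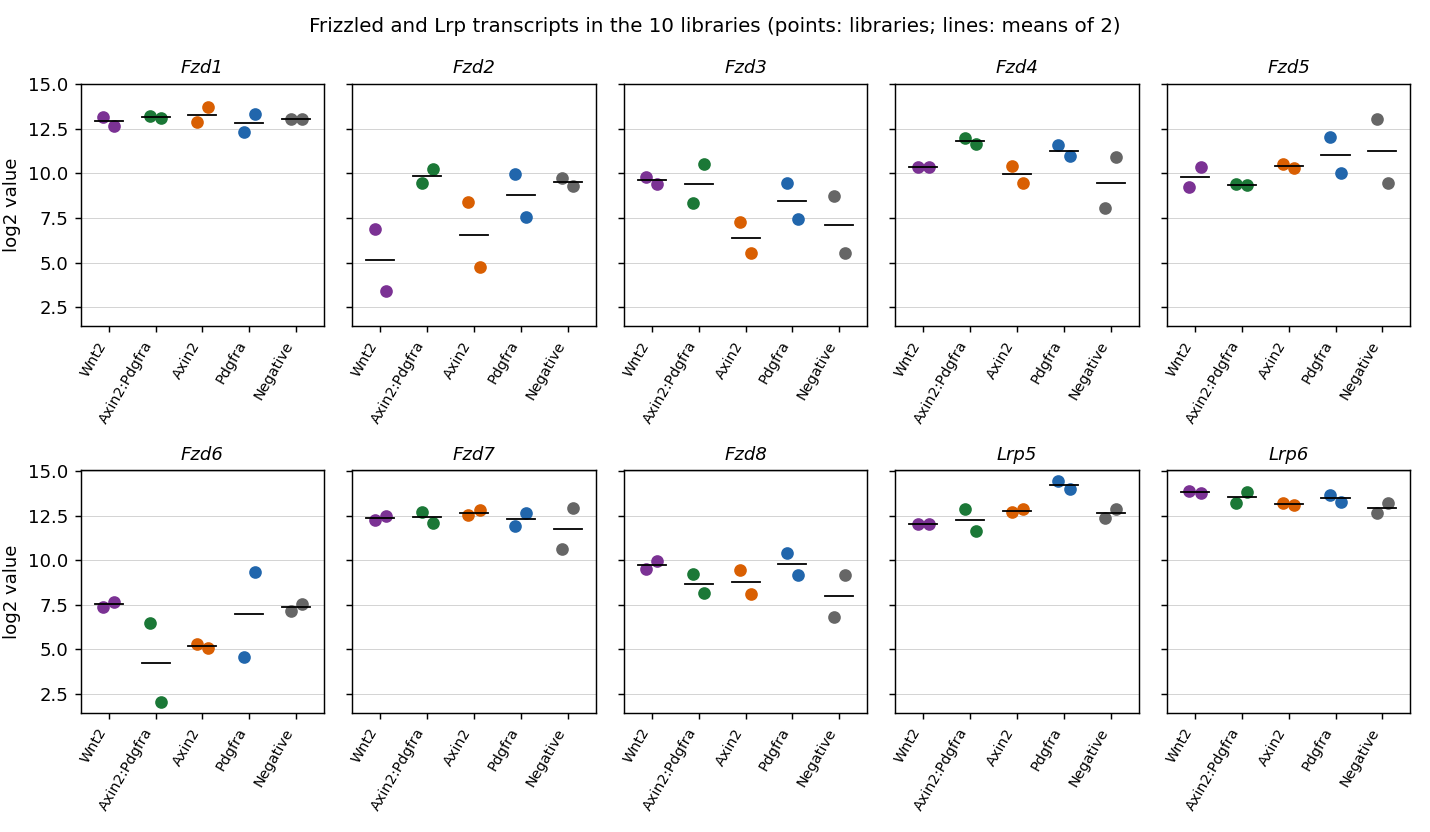
Log2 value of each of the 10 receptor genes (y axis) in the 10 libraries, by lineage (x axis); points are libraries and lines are means of 2. Fzd1 and Lrp6 lie in narrow bands, as does Fzd7 apart from Negative 0 at 10.63, both Pdgfra libraries stand above the rest for Lrp5, and Fzd2, Fzd3 and Fzd6 scatter within lineages.

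Lrp5, the coreceptor known from the control of bone mass and of retinal vessels, was the receptor that differed among the lineages. It was at 12 and 12.05 in Wnt2 libraries, 12.88 and 11.66 in Axin2:Pdgfra libraries, 12.69 and 12.84 in Axin2 libraries, 14.41 and 13.99 in Pdgfra libraries, and 12.35 and 12.89 in Negative libraries. Both Pdgfra libraries were above all 8 others, and the other 4 lineages lay close together. The F-test across the 5 lineages (limma, two-sided, Benjamini-Hochberg over 14177 genes, threshold 0.05) gave an adjusted p of 0.0236. Lrp5 was the only one of the 10 receptors past that threshold, a share close to the 8.2% of all tested genes called by the same test. Likewise 2.79% of all tested genes had both Pdgfra libraries above the other 8, and Lrp5 was the only receptor that did.

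Lrp5 was 4.5-fold lower in Wnt2 than in Pdgfra cells, at 12.03 ± 0.04 against 14.2 ± 0.3 (SD, n = 2 each), a log2 difference of -2.17 ± 0.41 (SE, 95% interval -3.06 to -1.29; limma adjusted p = 0.04). This was the only receptor called between these lineages, where 0.367% of tested genes were called. The 3 other differences that involve Pdgfra cells were of similar size and did not pass. Axin2:Pdgfra minus Pdgfra was -1.93 ± 0.41 (limma adjusted p = 0.0919), where 0.0423% of genes were called. Axin2 minus Pdgfra was -1.44 ± 0.41 (limma adjusted p = 0.0914), where 2.26% were called, and Pdgfra minus Negative was 1.58 ± 0.41 (limma adjusted p = 0.0584), where 2.91% were called.

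These Lrp5 calls did not hold when some single libraries were left out, in fits that also called fewer of all tested genes. Without either Axin2 library the difference of Wnt2 from Pdgfra cells was -2.17, as with all libraries, so only its adjusted p moved. Without either Wnt2, Axin2 or Pdgfra library the F-test's adjusted p (limma) was between 0.0507 (without Axin2 1) and 0.201 (without Pdgfra 1). The others were 0.0685 without Wnt2 1, 0.0623 without Wnt2 2, 0.0562 without Axin2 2 and 0.0916 without Pdgfra 2. The difference of Wnt2 from Pdgfra cells stayed between -2.39 and -1.96, but its call ended in the same 6 cases, at limma adjusted p of 0.25 without Wnt2 1, 0.236 without Wnt2 2, 0.0809 without Axin2 1, 0.0781 without Axin2 2, 0.527 without Pdgfra 1 and 0.178 without Pdgfra 2. Conversely, without Axin2:Pdgfra 1 the differences from Pdgfra of Axin2:Pdgfra (-2.54, adjusted p = 0.0313) and of Negative cells (adjusted p = 0.0325 by limma) passed. Without Axin2:Pdgfra 2 those of Axin2 (adjusted p = 0.0476 by limma) and of Negative cells (adjusted p = 0.0297) passed.

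Neither sort label, averaged over the states of the other, gave a call for Lrp5. With minus without the Pdgfra label the Lrp5 difference was 0.54 ± 0.29 (interval -0.09 to 1.17; limma adjusted p = 0.323), and for the Axin2 label it was -0.89 ± 0.29 (interval -1.52 to -0.27; limma adjusted p = 0.136). The Pdgfra label difference was 0.24 without Axin2:Pdgfra 1 and 0.85 without Axin2:Pdgfra 2, and the Axin2 label difference was -1.2 and -0.59 in these cases. The interaction, Axin2:Pdgfra minus Axin2 less Pdgfra minus Negative, was -2.07 ± 0.59 (interval -3.33 to -0.82) with an unadjusted p of 0.00321 and an adjusted p of 0.384 by limma. No gene was called for the interaction (0% of 14177 by limma, and 1296 genes at an unadjusted p under 0.05).

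Summed markers of endothelial and epithelial cells were also higher in both Pdgfra libraries than in any Wnt2, Axin2:Pdgfra or Axin2 library. All 12 endothelial markers were present, with none at its lowest value, and their summed log2 level was 16.38 in both Pdgfra libraries, 14.91 to 15.06 in Wnt2, 14.53 to 14.54 in Axin2:Pdgfra, 14.91 to 15.33 in Axin2 and 15.84 to 17.21 in Negative libraries. The 14 epithelial markers summed to 16.69 to 17.27 in Pdgfra libraries, 14.73 to 15.55 in Wnt2, 15.54 to 15.56 in Axin2:Pdgfra, 15.86 to 16.43 in Axin2 and 17.99 to 18.1 in Negative libraries. Single epithelial markers did not all follow that sum. Sftpc (15.13 and 14.68) and Scgb1a1 (15.61 and 15.21) were higher in Pdgfra libraries than in any Wnt2, Axin2:Pdgfra or Axin2 library. Epcam was at 1.55, the lowest value of its library, in Pdgfra 1 and at 6.33 in Pdgfra 2, against 10.06 in Axin2:Pdgfra 1. Ager was at 12.67 and 12.3 in Pdgfra and 12.97 and 12.61 in Axin2 libraries. Immune markers (11 of 12 present) summed to 14.65 to 15.01 in Pdgfra libraries and 13.3 to 14.32 across Wnt2, Axin2:Pdgfra and Axin2 libraries, with 14.74 to 15.71 in Negative libraries. That sum was led by Lyz2 (14.88 and 14.37 in Pdgfra libraries), and other immune markers did not follow it. Ptprc, the pan-leukocyte marker, was at 7.18 and 8.5 in Pdgfra libraries and at 11.54 and 9.84 in Wnt2 libraries, and the median immune marker was at 6.89 and 8.5 in Pdgfra libraries, against 4.74 to 9.18 in Wnt2, Axin2:Pdgfra and Axin2 libraries. Single endothelial markers did not all follow their sum either. Esam was at 9.69 and 11.95 in Pdgfra libraries, against 11.92 and 12.25 in Axin2 libraries. Emcn was at 11.45 and 10.73 in Pdgfra libraries and 11.47 and 7.89 in Axin2 libraries. Pecam1 (13.53 and 13.41) was higher in Pdgfra libraries than in any Wnt2, Axin2:Pdgfra or Axin2 library. So was Cdh5, an endothelial cadherin, at 14.78 and 14.73, whereas Negative 2 had the highest Cdh5, 15.53, with Lrp5 at 12.89. The part of these cells in the level of Lrp5 was not tested, and in sorted bulk samples more cells of a type and more RNA per cell cannot be told apart.

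**Figure D2:**
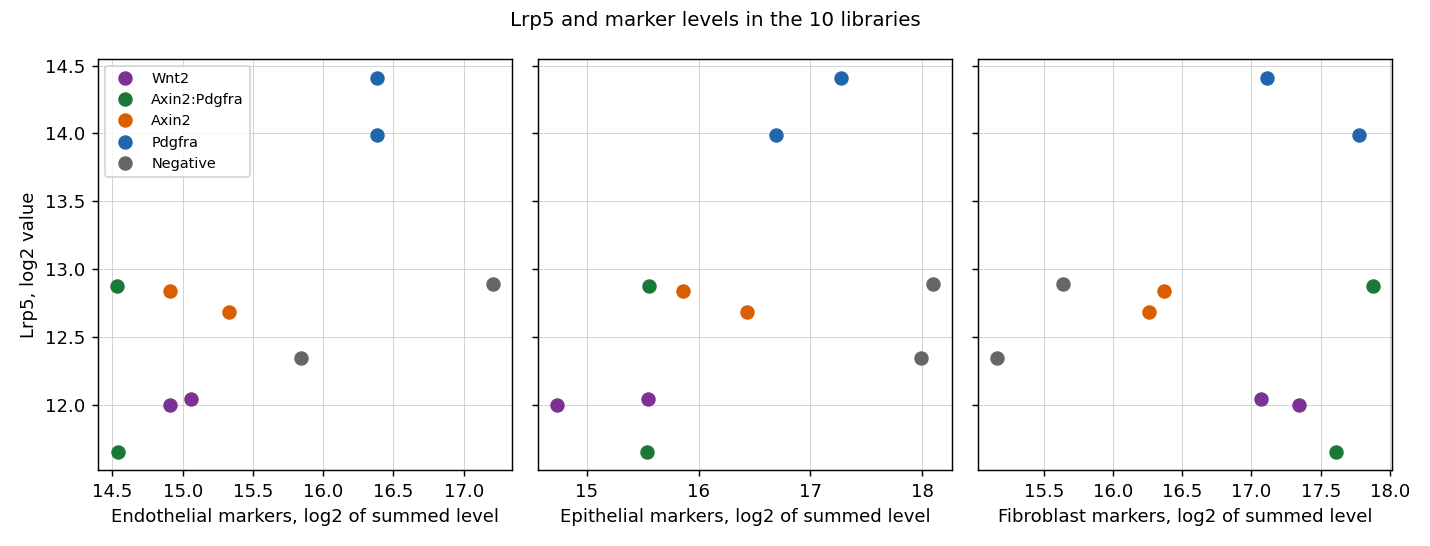
Lrp5 (log2 value, y axis) against the log2 of the summed level of endothelial, epithelial and fibroblast markers (x axes), with 1 point per library coloured by lineage. The Pdgfra libraries have Lrp5 at 14.41 and 13.99, and both Negative libraries have higher epithelial marker sums with Lrp5 at 12.35 and 12.89.

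Lrp6, the second Wnt coreceptor, was abundant and even. It was at 13.86 and 13.74 in Wnt2 libraries, 13.22 and 13.84 in Axin2:Pdgfra libraries, 13.22 and 13.08 in Axin2 libraries, 13.67 and 13.28 in Pdgfra libraries, and 12.65 and 13.18 in Negative libraries. The ranges of neighbouring lineages overlapped except those of Pdgfra and Axin2 cells, and the whole set spanned 1.21 log2 units. Its lineage means spanned 0.89, against a median span of 2.37 over all tested genes. The F-test did not pass (limma adjusted p = 0.324). Wnt2 minus Negative, its widest difference, was 0.89 ± 0.33 (interval 0.18 to 1.6; limma adjusted p = 0.139), where 5.81% of all genes were called. The order of lineages for Lrp6 began with Wnt2 and for Lrp5 ended with Wnt2, and neighbouring lineages in either order did not differ past the threshold.

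Fzd4, which besides Wnt proteins binds Norrin together with Lrp5 in retinal vessels, was the Frizzled whose libraries were separated by the Pdgfra label. It was at 11.97 and 11.64 in Axin2:Pdgfra libraries and 11.58 and 10.95 in Pdgfra libraries, against 10.44 and 9.49 in Axin2 libraries and 8.05 and 10.9 in Negative libraries. The 4 libraries with the label were all above the 4 without it, the closest being Pdgfra 2 and Negative 2. Such separation, in either direction, was found for 8.86% of all tested genes, and Fzd4 was the only receptor that showed it. The difference of 1.81 ± 0.57 (SE, 95% interval 0.6 to 3.02) had an adjusted p of 0.0757 by limma, above the threshold.

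The Fzd4 difference turned on the Negative libraries. Without Negative 2 it was 2.52 with a limma adjusted p of 0.00484, and without Negative 0 it was 1.1 with an adjusted p of 0.132. Without Negative 2 the F-test for Fzd4 passed as well (limma adjusted p = 0.0279), and so did Axin2:Pdgfra minus Negative (3.75, adjusted p = 0.00924) and Pdgfra minus Negative (3.21, adjusted p = 0.0324), which with all libraries were 2.33 ± 0.8 and 1.79 ± 0.8 (limma adjusted p = 0.102 and 0.263). Wnt2 cells, from the other line, had Fzd4 at 10.35 and 10.34, below every Pdgfra-labelled library. Most fibroblast markers moved with the same label: 7 of 8 were called higher and none lower by limma. The 7 include Pdgfra, the gene of the label, for which the sort itself selects. Pdpn, the other marker, was at 9.51 and 10.09 in Axin2:Pdgfra and 10.76 and 8.32 in Pdgfra libraries. It was at 8.49 and 9.91 in Axin2 and 12.86 and 12.7 in Negative libraries. Fibroblast markers summed to 17.61 to 17.88 in Axin2:Pdgfra and 17.11 to 17.78 in Pdgfra libraries. The sums were 16.26 to 16.37 in Axin2 and 15.16 to 15.64 in Negative libraries. Their part in the Fzd4 level was not tested.

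Fzd1 and Fzd7, which belong to the same Frizzled subgroup together with Fzd2, were the most abundant Frizzled transcripts and among the evenest. Fzd1 was at 13.15 and 12.67 in Wnt2, 13.2 and 13.12 in Axin2:Pdgfra, 12.86 and 13.72 in Axin2, 12.31 and 13.34 in Pdgfra, and 13.02 and 13.04 in Negative libraries. Its lineage means spanned 0.47 log2 units, at percentile 1.09 of all tested genes. Differences by label could lie between -0.78 and 0.44 for Pdgfra and between -0.31 and 0.91 for Axin2 (95% intervals), and between -0.84 and 0.52 for Wnt2 cells against the other 4 lineages.

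Fzd7, known from the upkeep of intestinal stem cells in mice, was at 12.27 and 12.49 in Wnt2, 12.7 and 12.1 in Axin2:Pdgfra, 12.51 and 12.8 in Axin2, 11.94 and 12.65 in Pdgfra, and 10.63 and 12.91 in Negative libraries. Negative 0 and Negative 2 were the lowest and the highest of all, and the other 8 values lay within a narrow band between them. Its lineage means spanned 0.89, at percentile 8.13. The interval of the Pdgfra label difference was -0.75 to 1.02, and that of the Axin2 label difference was -0.39 to 1.38. The F-test adjusted p by limma was 0.854 for Fzd1 and 0.771 for Fzd7.

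Fzd2, a receptor also engaged by Wnt5a, had the widest span of lineage means, 4.73 log2 units, at percentile 83.3. It was at 6.89 and 3.39 in Wnt2 libraries, 9.47 and 10.26 in Axin2:Pdgfra libraries, 8.39 and 4.74 in Axin2 libraries, 9.96 and 7.58 in Pdgfra libraries, and 9.77 and 9.29 in Negative libraries. The lowest value was in a Wnt2 library, and the Wnt2 range overlapped that of Axin2 cells but lay below those of the other 3 lineages. Wnt2 minus the mean of the other 4 lineages was -3.54 ± 1.22 (interval -6.16 to -0.92) with an unadjusted p of 0.0116 and an adjusted p of 0.187 by limma, where 2.16% of all genes were called. It was -5.29 without Wnt2 1 and -1.79 without Wnt2 2. Against Axin2:Pdgfra cells the Wnt2 difference was -4.73 ± 1.55 (limma adjusted p = 0.201), or -6.48 without Wnt2 1 and -2.98 without Wnt2 2, and 0.635% of genes were called there. The gap between replicate libraries reached 3.65 log2 units, in Axin2 cells.

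Fzd3 and Fzd6, the polarity receptors, were scarce and uneven. Fzd3, needed for the guidance of axons in mice, was at 9.78 and 9.43 in Wnt2 libraries, 8.35 and 10.5 in Axin2:Pdgfra libraries, 7.26 and 5.52 in Axin2 libraries, 9.44 and 7.43 in Pdgfra libraries, and 8.73 and 5.55 in Negative libraries. The Pdgfra-labelled libraries were all above both Axin2 libraries, while Negative 0 lay among them. The Pdgfra label difference was 2.16 ± 0.97 (interval 0.07 to 4.25; limma adjusted p = 0.226; 1.37 without Negative 2), and Wnt2 minus Axin2 was 3.21 ± 1.38 (limma adjusted p = 0.237), where 4.05% of all genes were called. Axin2:Pdgfra minus Axin2 was 3.04 ± 1.38 (limma adjusted p = 0.335; 1.96 without Axin2:Pdgfra 2), where 2.3% were called.

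Fzd6, which orients hair follicles in mice, was at 7.4 and 7.65 in Wnt2 libraries, 6.47 and 2.06 in Axin2:Pdgfra libraries, 5.29 and 5.08 in Axin2 libraries, 4.6 and 9.33 in Pdgfra libraries, and 7.16 and 7.56 in Negative libraries. The Pdgfra pair, 4.73 apart, held the highest value and the second lowest, and the value of 2.06 is the lowest that its library lists. Wnt2 and Negative pairs were close together and the Axin2 pair lay below both. With the Axin2 label the difference was -2.44 ± 1.38 (interval -5.39 to 0.51; limma adjusted p = 0.383), and it was -1.34 without Axin2:Pdgfra 2 and -1.26 without Pdgfra 2. The gaps inside the Axin2:Pdgfra and Pdgfra pairs exceeded the span of the lineage means, 3.26.

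Fzd5 and Fzd8 form another subgroup. Fzd5, required for the maturation of Paneth cells in the mouse intestine, was at 9.25 and 10.38 in Wnt2, 9.39 and 9.36 in Axin2:Pdgfra, 10.55 and 10.32 in Axin2, 12.03 and 10.01 in Pdgfra, and 13.07 and 9.45 in Negative libraries. Negative 0 and Pdgfra 1 were the 2 highest, each well above its own replicate, and the other 8 values lay between 9.25 and 10.55. Fzd8 was at 9.5 and 9.93 in Wnt2, 9.22 and 8.15 in Axin2:Pdgfra, 9.46 and 8.11 in Axin2, 10.4 and 9.19 in Pdgfra, and 6.8 and 9.16 in Negative libraries. Negative 0, the highest library for Fzd5, was the lowest for Fzd8 as for Fzd4, Fzd7 and Lrp6. The F-test adjusted p by limma was 0.532 for Fzd5, 0.578 for Fzd6 and 0.593 for Fzd8.

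Across the 10 receptors, none passed for the Pdgfra label, where 6.48% of all tested genes were called, 3.55% higher and 2.93% lower. At an unadjusted p under 0.05 by limma there were 2 receptors, beside 20.4% of all tested genes. The median difference of the receptors was 0.51 against 0 for all genes, with 7 higher and 3 lower. None passed for the Axin2 label, where 1.64% of all genes were called, 0.501% higher and 1.14% lower. The median difference was -0.02 against 0.07. Here 1 receptor was at an unadjusted p under 0.05 by limma, beside 17.5% of all genes. None passed for Wnt2 minus the mean of the other 4 lineages, where 0.719% of all genes were called higher and 1.44% lower. The median was -0.03 against 0.13. In that comparison 2 receptors were at an unadjusted p under 0.05 by limma, beside 14.4% of all genes. Nor did any pass for Axin2:Pdgfra or Axin2 minus Negative, where 6.72% and 0.6% of genes were called. There 1 and 0 receptors were at an unadjusted p under 0.05 by limma, beside 21.3% and 14.2% of all genes.

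**Figure D3:**
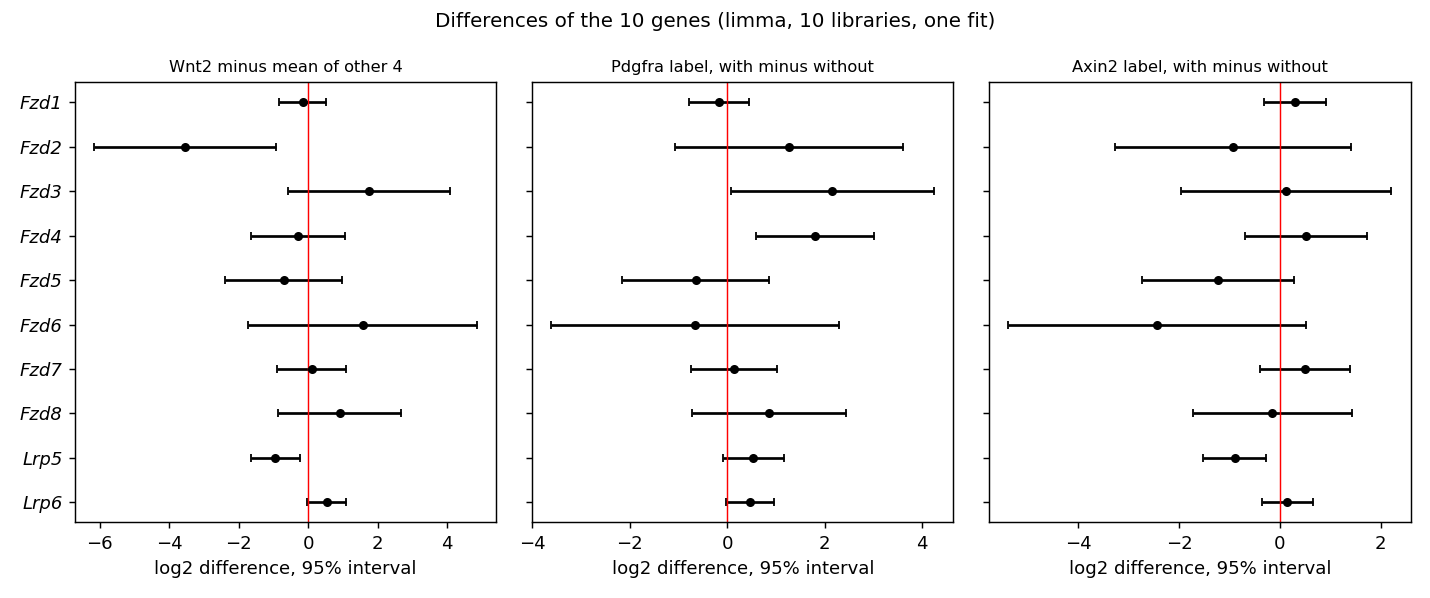
Log2 differences (x axes) of the 10 receptors (y axis) for Wnt2 cells minus the mean of the other 4 lineages, for the Pdgfra label and for the Axin2 label, from one limma fit of 10 libraries; points are estimates, bars are 95% intervals and the red line is 0. The intervals are narrow for Fzd1, Lrp5 and Lrp6 and wide for Fzd2, Fzd3 and Fzd6, and Fzd4 with the Pdgfra label is at 1.81.

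When the 5 lineages were put in order of mean level for each receptor, none of the 40 pairs of neighbours differed past the threshold. In 34 of them the libraries overlapped. Overlap of neighbours was not counted over all genes, so that number describes the values and is no result about the receptors. The lowest adjusted p by limma was 0.0914, for Pdgfra over Axin2 cells in Lrp5, with a gap of 1.44. Pairs of replicate libraries differed by a median of 0.3 over the 10 receptors in Wnt2 cells, 0.71 in Axin2:Pdgfra, 0.57 in Axin2, 1.12 in Pdgfra and 1.41 in Negative cells. Over all tested genes those medians were 0.55, 0.99, 0.84, 0.89 and 1.12 in the same order. Among pairs of receptors, Pearson's r over the 10 libraries, which share lineages, was furthest from 0 for Fzd5 with Fzd7 (-0.79), and the highest positive value was 0.65, for Fzd4 with Fzd8.

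Of the lists of pathway genes set beside the receptors, the other Wnt receptors and co-receptors held 2 of 16 tested genes past the F-test (12.5%, beside 8.2% of all genes), Gpc4 and Reck. Fzd9, Fzd10 and Ndp were not analysed here. Both Gpc4 and Reck were called lower with the Pdgfra label, 1 of the list (Gpc4) was called lower in Wnt2 cells, and none was called for the Axin2 label. Gpc4, a glypican that carries Wnt ligands at the cell surface, was at 6.18 and 7.81 in Wnt2, 8.26 and 10.49 in Axin2:Pdgfra, 12.35 and 13.23 in Axin2, 6.89 and 7.53 in Pdgfra, and 12.07 and 11.79 in Negative libraries. It fell with the Pdgfra label, by 4.07 ± 0.64 (limma adjusted p = 0.00152), with all 4 labelled libraries below all 4 unlabelled ones. In Wnt2 cells it fell by 3.34 ± 0.71 against the mean of the other 4 lineages (limma adjusted p = 0.0251), a call lost without Wnt2 1 (0.531), Wnt2 2 (0.0819), Axin2 2 (0.076) or Pdgfra 2 (0.0539). Reck, which presents Wnt7 ligands to Frizzled in brain vessels, was at 12.14 and 12.6 in Wnt2, 13.95 and 12.63 in Axin2:Pdgfra, 15.07 and 15.18 in Axin2, 12.61 and 12.81 in Pdgfra, and 14.54 and 13.21 in Negative libraries. It fell by 1.5 ± 0.32 with the label (limma adjusted p = 0.012), a call lost without Axin2:Pdgfra 2 (0.0516), Axin2 2 (0.0607) or Pdgfra 1 (0.0588), and the labelled and unlabelled libraries overlapped. Its F-test call was lost without Axin2 1 (0.0607) or Axin2 2 (0.0798). Summed mural cell markers, all 12 present and none at its lowest value, were likewise lower with the Pdgfra label. They summed to 13.98 to 14.33 in Wnt2, 14.92 to 15.69 in Axin2:Pdgfra, 18.68 to 18.89 in Axin2, 15.14 to 15.18 in Pdgfra and 16.55 to 17.75 in Negative libraries. By limma 9 of the 12 were called lower with the label and none higher. Kcnj8 and Abcc9 did not follow the sum. Kcnj8 was at 12.5 and 12.29 in Axin2:Pdgfra and 11.78 and 8.58 in Pdgfra libraries, against 11.65 and 10.84 in Axin2 and 9.07 and 7.25 in Negative libraries. The part of mural cells was not tested. The median difference of the other Wnt receptors and co-receptors was -0.09 for the Pdgfra label, 0.21 for the Axin2 label and -0.32 for Wnt2 cells. For all genes it was 0, 0.07 and 0.13.

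Of 14 tested genes that govern turnover and traffic of Frizzled and Lrp proteins, 2 passed the F-test (14.3%), the R-spondin receptors Lgr5 and Lgr6. Lgr5 was called higher with the Pdgfra label, Lgr6 was called lower in Wnt2 cells, and none was called for the Axin2 label. R-spondins bound to Lgr proteins withhold the ligases Rnf43 and Znrf3, which remove Frizzled from the membrane. Lgr5 was at 4.07 and 1 in Wnt2 libraries. It was at 11.52 and 9.96 in Axin2:Pdgfra and 9.8 and 9.09 in Pdgfra libraries, against 3.96 and 1.75 in Axin2 and 3.36 and 2.67 in Negative libraries. The labelled and unlabelled libraries were far apart (7.16 ± 1.26, limma adjusted p = 0.00329), and since Axin2 2 and Negative 2 were at their lowest value the size of that difference depends on it. Lgr6 was at 1.95 and 3.35 in Wnt2 and at 9.91 and 9.32 in Axin2:Pdgfra, 9.11 and 9.8 in Axin2, 11.09 and 10.12 in Pdgfra, and 8.94 and 2.67 in Negative libraries. Its fall in Wnt2 cells, by 6.22 ± 1.37 (limma adjusted p = 0.028), lost its call without any single Wnt2, Axin2:Pdgfra, Axin2 or Pdgfra library, at adjusted p of 0.0502 to 0.375, and so did its F-test call (0.0609 to 0.142). Neither ligase passed the F-test by limma, Rnf43 at an adjusted p of 0.0534 and Znrf3 at 0.184. The list's median difference was 1.01 for the Pdgfra label, 1.05 for the Axin2 label and -0.89 for Wnt2 cells.

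Among transducers inside the cell 0 of 34 tested genes passed the F-test (limma), with 11 (32.4%) at an unadjusted p under 0.05, beside 23.9% of all genes. Without Negative 0 there were 4 past it and without Negative 2 there was 1, where 10.8% and 7.74% of all genes were called. With the Pdgfra label 2 of the 34 were called (5.88%), close to the 6.48% of all genes, so that the count is no result about the list. Both fall outside the rule for named genes and were chosen after their values were seen. Both encode kinases of the casein kinase 1 family. Csnk1a1, which primes beta-catenin for degradation, was at 13.36 and 13.55 in Axin2:Pdgfra and 13.23 and 13.33 in Pdgfra libraries, against 12.91 and 12.66 in Axin2 and 12.4 and 12.4 in Negative libraries (0.78 ± 0.21, limma adjusted p = 0.0445). Wnt2 libraries, outside this comparison, had Csnk1a1 at 13.69 and 13.68, above every labelled library. Csnk1g3, of the gamma class that phosphorylates the tail of Lrp6, was at 11.74 and 12.56 in Axin2:Pdgfra and 12.18 and 11.81 in Pdgfra libraries, against 10.15 and 10.57 in Axin2 and 11.77 and 10.63 in Negative libraries (1.29 ± 0.36, limma adjusted p = 0.0449). Wnt2 libraries, likewise outside the comparison, had Csnk1g3 at 12.52 and 12.43. Csnk1a1 did not overlap between labelled and unlabelled libraries, and Csnk1g3 overlapped through Axin2:Pdgfra 1 and Negative 0. Without single libraries the Csnk1a1 call was lost in every case but Negative 0 (limma adjusted p of 0.0514 to 0.154), and also with the second sequencing index as a term (0.0634) and with no trend and no robust step (0.256). The Csnk1g3 call was lost in every case but Axin2:Pdgfra 1 and Negative 0 (0.087 to 0.154), and with no trend and no robust step (0.167). The list's median difference was -0.14 for the Pdgfra label, 0 for the Axin2 label and 0.16 for Wnt2 cells.

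Among the ligands and the proteins that secrete them, 1 of 12 tested genes passed the F-test (8.33%), Wnt5a, and among antagonists 1 of 7 (14.3%), Dkk3. Wnt5a, a ligand mostly of the branches without beta-catenin, was at 9.7 and 8.7 in Wnt2 libraries and 10.54 to 12.31 in the 8 others. It fell in Wnt2 cells by 1.96 ± 0.46 (limma adjusted p = 0.0412), and both Wnt2 libraries were the lowest. That call was lost without any single Wnt2, Axin2 or Pdgfra library or Axin2:Pdgfra 1 (0.0671 to 0.628), and the F-test call (adjusted p = 0.0462 by limma) without any but a Negative library (0.0596 to 0.273). With the index term they were at 0.0575 and 0.0638, and with no trend and no robust step at 0.155 and 0.154. Dkk3, a secreted member of the Dickkopf family, was at 14.13 and 14.17 in Axin2:Pdgfra and 14.16 and 14.3 in Axin2 libraries, against 13.18 and 13.74 in Pdgfra and 13.3 and 12.75 in Negative libraries. It rose with the Axin2 label by 0.94 ± 0.22 (limma adjusted p = 0.0466), and all 4 labelled libraries were above the 4 others. Without single libraries that call was lost in every case but Negative 0 (0.052 to 0.216), and the F-test call without any single Wnt2, Axin2:Pdgfra or Axin2 library (0.0669 to 0.128). Median differences of ligands were 0.02 for the Pdgfra label, 0.11 for the Axin2 label and -1.31 for Wnt2 cells, and those of antagonists were 1.52, 0.94 and -1.4 in the same order.

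The LDL receptor relatives of Lrp5 and Lrp6 held 3 of 8 tested genes past the F-test (37.5%, limma): Vldlr, Lrp3 and Lrp1. Vldlr, a receptor for reelin and lipoproteins, was at 13.45 and 13.59 in Wnt2 libraries and 10.33 to 13.03 in the 8 others, and it rose in Wnt2 cells by 1.81 ± 0.37 (limma adjusted p = 0.019, but 0.277 without Wnt2 1 and 0.308 without Wnt2 2). Its F-test call was lost in the same 2 cases (0.0833 and 0.0974). With no trend and no robust step both calls were lost (0.185 for the difference and 0.161 for the F-test), and without both Wnt2 libraries the F-test was at 0.222. Lrp3 was at 10.82 and 10.37 in Wnt2 libraries, which lack the Pdgfra label. It was at 11.3 and 10.32 in Axin2:Pdgfra and 10.26 and 10.58 in Pdgfra libraries, against 7.8 and 7.56 in Axin2 and 8.03 and 8.82 in Negative libraries. It rose with the Pdgfra label by 2.56 ± 0.54 (limma adjusted p = 0.0106, and 0.0504 without Pdgfra 2), and its F-test call was lost without 7 of the libraries (0.0714 to 0.145), not without Axin2:Pdgfra 2 or either Negative library. The F-test call of Lrp3 was lost as well with the index term (0.0772) and with no trend and no robust step (0.0776). Lrp1, a large endocytic receptor, was at 15.66 to 16.14 in the 8 libraries of the other lineages and 15.19 and 14.98 in Negative libraries, and its F-test call (limma adjusted p = 0.0498) ended without any single library (0.0608 to 0.2). The list's median difference was 0.17 for the Pdgfra label, 0.27 for the Axin2 label and 0.08 for Wnt2 cells.

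**Figure D4:**
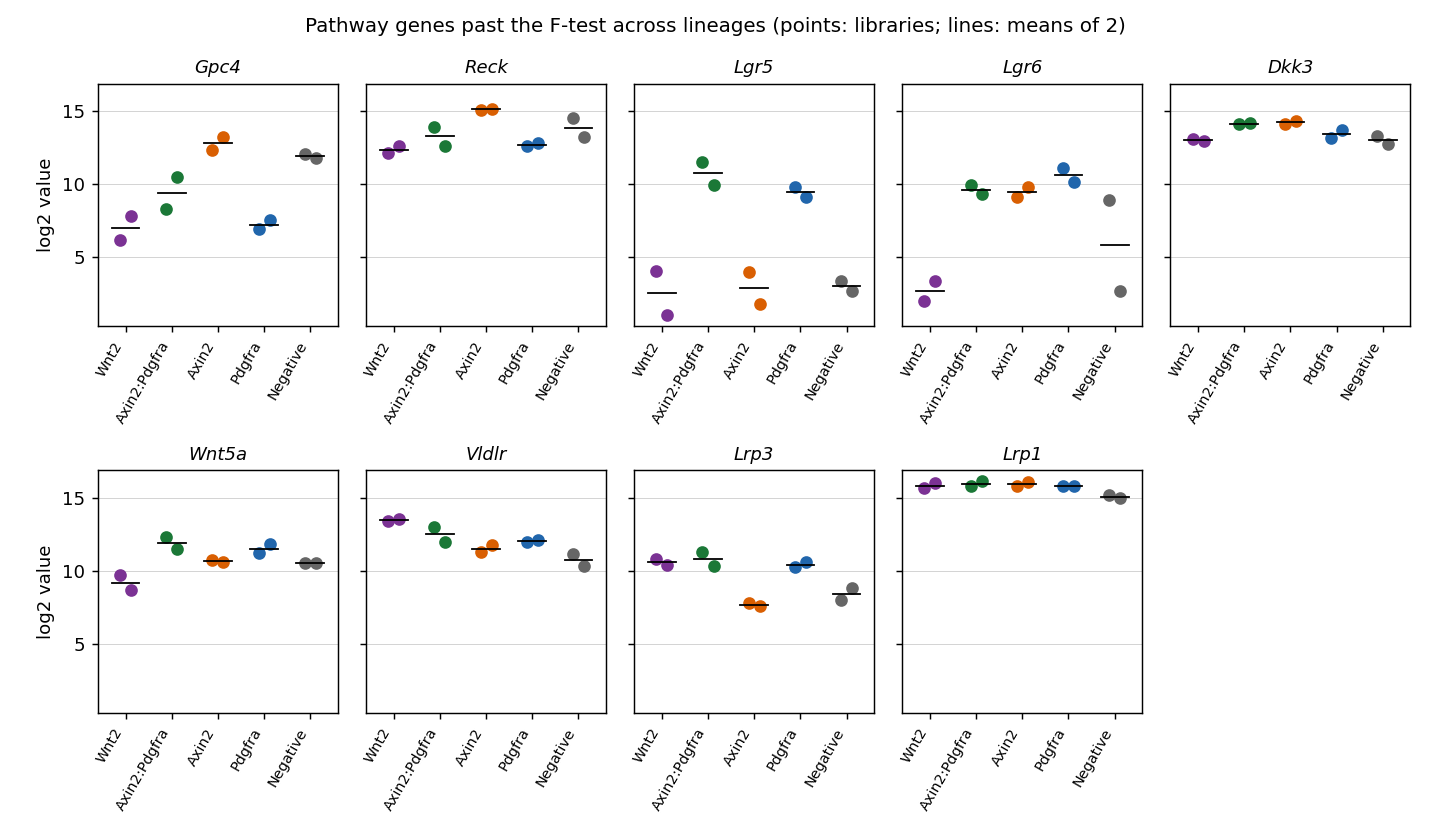
Log2 value (y axis) of the 9 pathway genes past the F-test across lineages, in the 10 libraries by lineage (x axis); points are libraries and lines are means of 2. Within the Axin2CreERT2 line Lgr5 and Lrp3 are higher and Gpc4 is lower in the libraries with the Pdgfra label. Wnt2 libraries, which lack that label, are as high for Lrp3, as low for Gpc4 and low for Lgr5. Lgr6 is low in both Wnt2 libraries and in Negative 2.

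Without single libraries the number of genes past the F-test was 1 to 4 for the other receptors, 1 to 3 for turnover, 0 to 1 for ligands, 0 to 1 for antagonists, 0 to 4 for transducers and 0 to 2 for the LDL receptor relatives. The lists were short, and their shares with all libraries were read beside the 8.2% of all genes without a test. That share does not apply to the counts without single libraries. The share of all genes was higher than 8.2% without Negative 0 and lower without any other library.

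The 3 genes whose values followed Lrp5 most closely, among 10156 genes above the lowest value in every library, were Pip5k1c (Pearson's r = 0.927 over the 10 libraries), mt-Nd1 (0.902) and Brd2 (0.897). Pip5k1c, a kinase that makes the lipid PIP2, was at 11.8 and 11.52 in Pdgfra libraries and 9.5 to 11.28 in the 8 others. mt-Nd1, a mitochondrial subunit of respiratory complex I, was at 17.04 and 16.94 in Pdgfra libraries, with Negative 2 next at 16.85. Brd2, a chromatin reader, was at 14.51 and 14.03 in Pdgfra libraries, and Negative 2 at 14.05 lay between them. The r values share the 5 lineages and the 10 libraries with Lrp5 and are a description of likeness.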

How the data were processed

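The deposited tables give a single value per Ensembl gene for each of 10 libraries. The deposited values are taken as log2 values that the authors had normalized between libraries before deposit, an inference from the tables themselves: all libraries share their highest value and nearly their median, as quantile normalization leaves them. Per the submitters' processing notes, STAR, limma and the mouse build mm9 were used; the sources used here do not give versions, annotation, counting or what each tool was used for. Since the authors' tables hold no counts, no depth or counting error can be stated.

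Symbols were matched to 14720 of 14854 identifiers. Genes at a log2 value of 6 or more in at least 2 libraries were tested (14177). All 10 libraries entered 1 fit with a mean per lineage and no covariate, leaving 5 residual degrees of freedom (limma 3.58.1, R 4.3.3, lmFit and eBayes with trend and robust, two-sided, Benjamini-Hochberg over all tested genes per comparison, threshold 0.05). Counts of calls are over all tested genes. Beside the 10 receptors, the text names up to 6 genes of each pathway list past the F-test and the 3 genes with the highest Pearson's r to each receptor past it. The members, lists and tests were chosen with earlier results of these data known. Replicate numbers were not used to pair libraries across lineages in this fit. Alternative fits took the second sequencing index as a term. Both Axin2 libraries were in the same index set (A), whereas every other lineage had a library in each set (A and B). The index term was thus estimated from the other lineages and carried over to Axin2 cells.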

Additional observations from a re-analysis of the deposited data

How the results depend on the processing

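The number of receptors past the F-test was 1, and it was 0 with no trend and no robust step in limma, 0 without both Wnt2 libraries and 0 to 2 when single libraries were left out. For the Pdgfra label it was 0, and 0 to 1 without single libraries. Of all pairwise differences 1 passed, against 0 with no trend and no robust step, 2 with the second sequencing index as a term and 0 to 4 without single libraries. The counts for the Axin2 label, the interaction and Wnt2 cells stayed at 0 in every alternative run. The pairwise counts cover every receptor in every pair of lineages. Of all genes, 0.367% were called for Wnt2 minus Pdgfra, 0.0282% with no trend and no robust step and 0.339% with the index term. For Pdgfra minus Negative the shares were 2.91%, 0.501% and 2.84% in the same order. These shares also moved without single libraries, so the receptor counts there cannot be read apart from them. Over all genes the F-test called 1163, and 205 with no trend and no robust step. The adjusted p (limma) of Lrp5 was 0.243 there, 0.0541 without both Wnt2 libraries, and 0.0135 to 0.0237 with no filter, a stricter filter of 8, a common floor, median centring, the index term or the replicate block.

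Correlations of the difference between replicates across the lineages other than Negative were -0.0606 to 0.0279, which gave no sign of pairing. Alone they cannot show whether same-numbered libraries shared animals or a preparation. Negative 2 had Xist at 8.57 and Ddx3y at 10.74. Both differed in Axin2:Pdgfra 2 (17.47 and 2.06), Axin2 2 (16.68 and 1.75) and Pdgfra 2 (17.32 and 1). Negative 2 therefore did not come from the same set of animals as those libraries. Negative 0 was the only library numbered 0, so the replicate block gave it a term of its own and in effect set it aside. In that respect the block is no check apart from the fit without Negative 0. It differs from that fit by a further term, for replicate 1 against replicate 2. The Fzd4 difference for the Pdgfra label was 0.98 with the block and 1.1 without Negative 0.

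Of 30 receptor differences for the labels and Wnt2 cells, 12 changed sign in some alternative, and none of these was called. Without single libraries the Pdgfra label differences ranged over -0.42 to 0.09 for Fzd1, -1.55 to 0.26 for Fzd5, -1.84 to 0.52 for Fzd6 and -0.43 to 0.7 for Fzd7. The Axin2 label differences ranged over -0.68 to 0.91 for Fzd3, -0.2 to 1.23 for Fzd4, -0.07 to 1.06 for Fzd7, -0.74 to 0.44 for Fzd8 and -0.01 to 0.3 for Lrp6. Those of Wnt2 cells ranged over -0.4 to 0.08 for Fzd1, -0.64 to 0.07 for Fzd4 and -0.18 to 0.38 for Fzd7. With the index term the Pdgfra label difference was -0.01 for Fzd7, and the Axin2 label differences were -0.11 for Fzd3 and 0.17 for Fzd8. With the replicate block the Pdgfra label differences were 0.18 for Fzd5 and -0.4 for Fzd7, and the Axin2 label differences were -0.32 for Fzd4 and -0.04 for Fzd7. That of Wnt2 cells was -0.16 for Fzd7. Each of these differences also changed sign without Negative 0, which the block in effect sets aside. The causes were not tested.

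Among pathway genes, no trend and no robust step ended every call named above (adjusted p of 0.0555 to 0.6 by limma) except both of Lgr5 and the Pdgfra label calls of Gpc4 and Lrp3. The index term also ended those of Dkk3 (0.0529 for the F-test, 0.081 for the Axin2 label) and Lrp1 (0.07), and median centring that of Lrp1 (0.0566). The replicate block ended the F-test calls of Wnt5a (0.0526), Lrp1 (0.054) and Lrp3 (0.0581) and the Pdgfra label call of Csnk1a1 (0.0815), and 2 transducers passed the F-test under it. Without both Wnt2 libraries the F-test calls of Lgr6 (0.235), Dkk3 (0.0912), Wnt5a (0.342) and Lrp3 (0.121) ended, as did the label calls of Dkk3 (0.0665), Csnk1a1 (0.0962) and Csnk1g3 (0.0946).

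Each lineage had 2 libraries, and replicate gaps of Fzd2, Fzd3 and Fzd6 reached 3.65, 3.18 and 4.73 log2 units. Without counts, the part of sequencing depth in these gaps was not tested.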
